A study of Mus musculus with 20 samples.

Results

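The data describe 2557 promoter regions of the mouse genome that were open and carried histone H3 lysine 27 trimethylation (H3K27me3) in neocortical cells of the Nkx2.1 lineage. They were chosen by a rule that used measured values, from 32120 consensus ATAC-seq regions of which 13909 were annotated as promoters (the start site at most 1 kb away). A promoter was kept when a broad H3K27me3 Cut&Tag peak of each of the 2 WT libraries overlapped it by 1 bp or more, which 18.4% of promoters met. The other 11352 promoters served for comparison. The 2557 regions lay on 20 chromosomes, 28 of them on the X chromosome, and belonged to 2396 genes with a symbol, 62 of which had 2 or more such regions, while 93 regions had no symbol.

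H3K27me3 is laid down by Polycomb repressive complex 2, whose catalytic subunit is Ezh1 or Ezh2, and is read by Polycomb repressive complex 1. In the nervous system the mark lies over the promoters of regulators of other lineages and regions, often across CpG-rich DNA and often over several kilobases around homeobox genes. H3K27 acetylation (H3K27ac) occupies the same residue and marks active promoters and enhancers, so one histone tail cannot carry both. H3K4 monomethylation (H3K4me1) is typical of enhancers and of promoter flanks. Tcf4 is a basic helix-loop-helix factor of the E protein family, which binds E-boxes, CANNTG.

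The cells were sorted as GFP-positive Nkx2.1-lineage cells of the neocortex of pups at postnatal day 7 or 8. WT mice carried Nkx2.1-Cre and the Ai3 reporter, and Tcf4 cKO mice carried in addition floxed Tcf4 alleles (Tcf4 f/f; Nkx2.1-Cre), so both genotypes carried Cre and the deletion was limited to cells that had expressed Nkx2.1-Cre and their progeny. A further line, the Tcf4-tag mouse, carried a Cre-dependent Flag and HA tag on endogenous Tcf4. Each genotype had 2 libraries for each of ATAC-seq, H3K4me1, H3K27ac and H3K27me3, from 50000 cells a library, and Tcf4-tag mice had 2 anti-Flag libraries from 200000 nuclei each. The labels did not say whether the libraries came from separate animals, so p-values measure only the spread between libraries. With 2 libraries against 2 the exact permutation test cannot go below p = 0.333, and no difference between genotypes could pass 0.05. The sorted population holds several cell types, so 2 marks at one promoter were not shown to be in one cell, and fewer marked cells cannot be told apart from less signal per cell.

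The H3K27me3 libraries held 15085 and 16790 peaks in WT and 19182 and 15772 in Tcf4 cKO. H3K27ac gave 28413 and 24477 peaks in WT against 26644 and 22026 in Tcf4 cKO, and H3K4me1 gave 51510 and 59526 in WT against 72790 and 65049 in Tcf4 cKO. The ATAC-seq libraries had between 54162 and 72308 peaks, and the anti-Flag libraries 28606 and 16834. Read depth is unknown, because peak lists hold no read totals. Of 13 gene lists, the microglial genes had 2 open promoters and neither overlapped H3K27ac in both libraries of a genotype, whereas 16 of 19 open housekeeping promoters did in WT. Of 7 endothelial and mural genes with an open promoter, 3 had H3K27ac in both WT and 2 in both Tcf4 cKO libraries.

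Coverage is used here for the percentage of the 10 kb around a region's centre that H3K27me3 peaks of a library covered. The marked promoters were divided by the mean of the 2 WT libraries into 4 groups of near-equal size, from group 1 (narrowest, 640 regions, coverage 3.55% to 7.47%) to group 4 (widest, 639 regions, 22.6% to 86.6%). In group 1 the median of the widest H3K27me3 peak at a promoter was 524 bp and 581.5 bp in the 2 WT libraries, and in group 4 it was 2867 bp and 2932 bp. Median fold enrichment of the peak over its local background went the other way, with 3.28 and 3.24 in group 1 and 2.10 and 2.07 in group 4. These values come from the libraries that chose the regions and are a description.

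**Figure D1:**
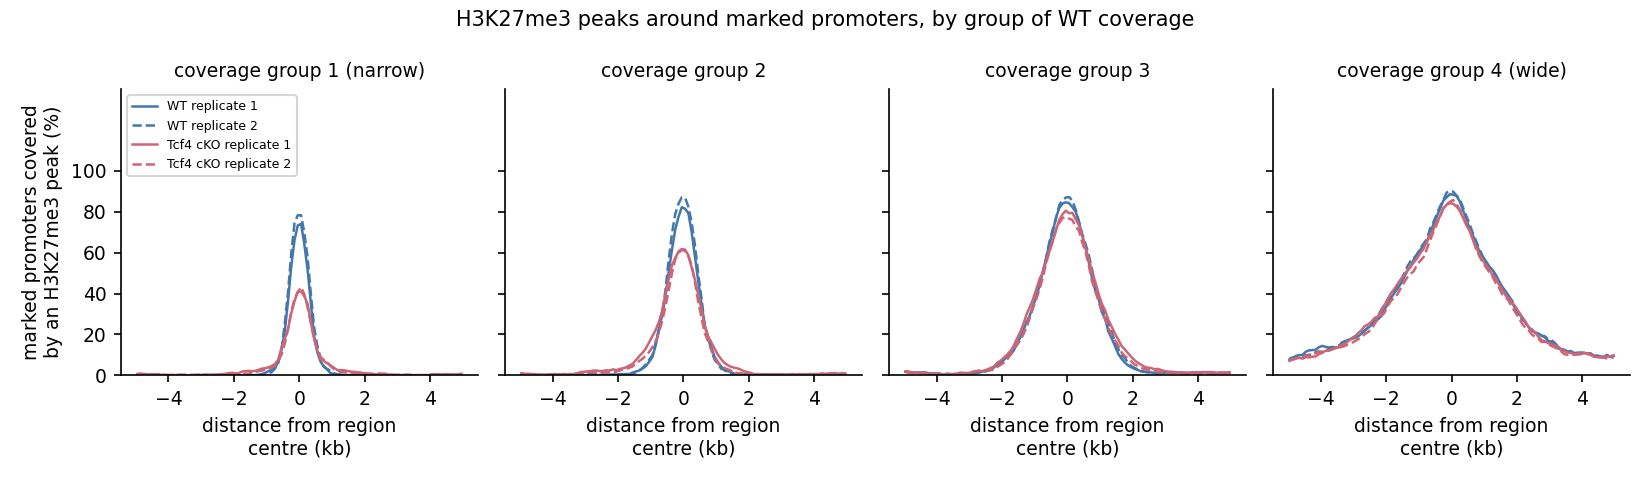
Share of marked promoters (%) covered by an H3K27me3 peak against the distance from the region's centre (kb), in 4 panels from coverage group 1 (narrow) to group 4 (wide), with 1 line per library. The curves of group 1 stay close to the centre, where the Tcf4 cKO lines are lower than the WT lines that chose the regions, and the curves of group 4 extend across the window with the 4 libraries close together.

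At the edge of the rule, 22 promoters were kept with under 100 bp of overlap in a WT library, the smallest being 2 bp, and 2320 promoters had a peak in a single WT library, 805 in replicate 1 and 1515 in replicate 2. The median −log10 q of the peaks at the marked promoters was 2.99, against 1.75 at promoters with a peak in 1 WT library. A −log10 q of at least 5 in both WT libraries was met by 570 of the 2557 regions, 373 of them in group 4 and 20 in group 1, so most of the narrow regions rest on peaks with a lower −log10 q in at least 1 library. Binding of a Polycomb protein was not measured in these libraries, and the regions are called H3K27me3-marked promoters by their rule. In the Tcf4 cKO libraries, which the rule did not use, 77.7% (95% Wilson interval 76.0% to 79.2%) and 77.9% (76.3% to 79.5%) of the marked promoters had an H3K27me3 peak, against 13.7% and 12.7% of the other promoters. Among the 570 these shares were 97.9% and 98.8%.

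The sequences of 5 of these promoters are given for the features that the results turn on. Each is 300 bases around the region's centre on the plus strand of GRCm38 (mm10), and capitals mark CG dinucleotides. Sgce, an imprinted sarcoglycan gene (chr6:4747950-4748249), had the highest ratio of observed to expected CG, 1.45.
Sgce: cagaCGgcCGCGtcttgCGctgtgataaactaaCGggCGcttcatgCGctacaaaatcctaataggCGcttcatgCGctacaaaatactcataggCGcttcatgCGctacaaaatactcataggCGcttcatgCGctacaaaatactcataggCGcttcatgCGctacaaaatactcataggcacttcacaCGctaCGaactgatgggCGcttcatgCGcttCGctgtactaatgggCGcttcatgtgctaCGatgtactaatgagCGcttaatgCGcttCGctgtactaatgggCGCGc
Foxb2, a single-exon forkhead gene (chr19:16872619-16872918), is shown as a region under broad H3K27me3, and Arid2, a subunit of the PBAF remodelling complex (chr15:96287009-96287308), as one with H3K27me3 in WT and H3K27ac in Tcf4 cKO. Their windows held 30 and 49 CG.
Foxb2: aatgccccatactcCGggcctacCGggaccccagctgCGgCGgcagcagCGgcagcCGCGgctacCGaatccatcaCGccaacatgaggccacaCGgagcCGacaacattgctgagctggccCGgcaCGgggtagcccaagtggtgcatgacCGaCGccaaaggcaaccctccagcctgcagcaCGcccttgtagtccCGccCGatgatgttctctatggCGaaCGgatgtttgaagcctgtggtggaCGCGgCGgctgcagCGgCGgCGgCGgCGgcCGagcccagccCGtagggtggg
Arid2: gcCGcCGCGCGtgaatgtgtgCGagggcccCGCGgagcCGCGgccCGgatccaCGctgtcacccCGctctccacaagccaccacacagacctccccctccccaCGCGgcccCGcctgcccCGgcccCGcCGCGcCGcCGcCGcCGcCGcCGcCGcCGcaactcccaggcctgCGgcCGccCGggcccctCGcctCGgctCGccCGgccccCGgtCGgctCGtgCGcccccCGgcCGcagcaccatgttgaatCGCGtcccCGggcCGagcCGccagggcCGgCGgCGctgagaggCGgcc
Gpsm2, which encodes a spindle-orienting protein (chr3:108722288-108722587), is shown for the largest mean Tcf4 fold enrichment, and the unnamed gene ENSMUSG00000089855 (chr10:105238223-105238522) for the largest mean H3K27me3 fold enrichment. The bases of the latter read as large-subunit ribosomal RNA, which exists in near-identical copies, so its fold enrichment is uncertain.
Gpsm2: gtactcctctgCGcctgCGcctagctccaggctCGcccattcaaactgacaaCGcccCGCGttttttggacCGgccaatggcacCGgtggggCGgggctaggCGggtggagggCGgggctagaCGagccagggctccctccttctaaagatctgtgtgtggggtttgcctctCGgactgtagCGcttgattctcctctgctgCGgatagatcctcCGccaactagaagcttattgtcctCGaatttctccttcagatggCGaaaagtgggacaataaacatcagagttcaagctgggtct
ENSMUSG00000089855: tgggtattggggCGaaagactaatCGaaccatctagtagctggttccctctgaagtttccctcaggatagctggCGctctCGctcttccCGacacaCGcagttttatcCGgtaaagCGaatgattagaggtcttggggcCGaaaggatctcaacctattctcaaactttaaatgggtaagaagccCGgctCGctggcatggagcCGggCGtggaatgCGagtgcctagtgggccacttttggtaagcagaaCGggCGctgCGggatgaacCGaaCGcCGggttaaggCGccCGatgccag

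As a group the marked promoters were CG-rich, with a CG ratio close to that of acetylated promoters without H3K27me3. The median CG ratio in the central 300 bases was 0.806, against 0.799 at the other promoters, 0.828 at the 6887 promoters with H3K27ac in both WT libraries and H3K27me3 in neither, and 0.570 at the 2145 promoters with H3K27me3 in neither WT library and H3K27ac in at most 1. Median GC content was 67.7%, 65.3%, 66.3% and 58.0% in the same order. Within the marked promoters the CG ratio was similar from group 1, 0.828, to group 4, 0.817. The E-box CAGCTG, searched on both strands and identical on each, occurred in 17.8% of the marked windows and in 17.9% of all 13909 promoter windows, and the general form CANNTG, which includes it, in 58.8% and 59.8%. Foxb2 held 1 CAGCTG in the window printed above, and the other 4 windows held none.

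Most H3K27me3-marked promoters also overlapped H3K27ac, and fewer did where H3K27me3 was wide. Over all marked promoters H3K27ac was called at 81.4% and 74.8% in the 2 WT libraries and at 74.8% and 65.3% in the 2 Tcf4 cKO libraries. The other promoters had 86.2% and 81.6% in WT and 83.1% and 77.4% in Tcf4 cKO. In each of the 4 libraries the marked promoters were lower, by 7.97 percentage points on average (range −12.1 to −4.76, two-sided exact sign-flip test over the libraries, p = 0.125, the smallest 4 libraries allow). H3K27ac was present in both WT libraries at 1808 of the 2557 (70.7%) and in both Tcf4 cKO libraries at 62.1%, against 50.01% and 45.2% of all regions. The shares were lower where the H3K27me3 peaks had a higher −log10 q. Among the 570 promoters with −log10 q of at least 5 in both WT libraries, 63.0% and 51.1% had H3K27ac in the 2 WT and 50.5% and 34.7% in the 2 Tcf4 cKO libraries, and 44.04% had it in both WT and 30.2% in both Tcf4 cKO libraries.

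In group 1 the H3K27ac share was 95.6% and 94.7% in WT and 95.5% and 89.8% in Tcf4 cKO. In group 4 it was 58.2% and 47.3% in WT and 45.2% and 31.1% in Tcf4 cKO, with H3K27ac in both libraries at 40.7% in WT and 26.4% in Tcf4 cKO. Group 4 was thus lower than group 1 by 48.4 percentage points on average, in 4 of 4 libraries (exact sign-flip test, p = 0.125). Tcf4 occupancy followed the same order, with 95.6% and 85.5% of group 1 and 57.9% and 22.2% of group 4 overlapping a Tcf4 peak in the 2 anti-Flag libraries, a difference of −50.5 percentage points on average (2 of 2 libraries, exact sign-flip test, p = 0.5, the smallest 2 libraries allow). The larger gap came from replicate 2, which had 16834 peaks against 28606. Median accessibility in WT, as the authors' mean log2 normalised reads, was 9.15 in group 1 and 7.26 in group 4. H3K4me1 differed between the groups by 4.58 percentage points on average and was higher in group 4 in 4 of 4 libraries (exact sign-flip test, p = 0.125). WT replicate 1 alone differed by 13.7 points, and without it the mean was 1.54 points.

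**Figure D2:**
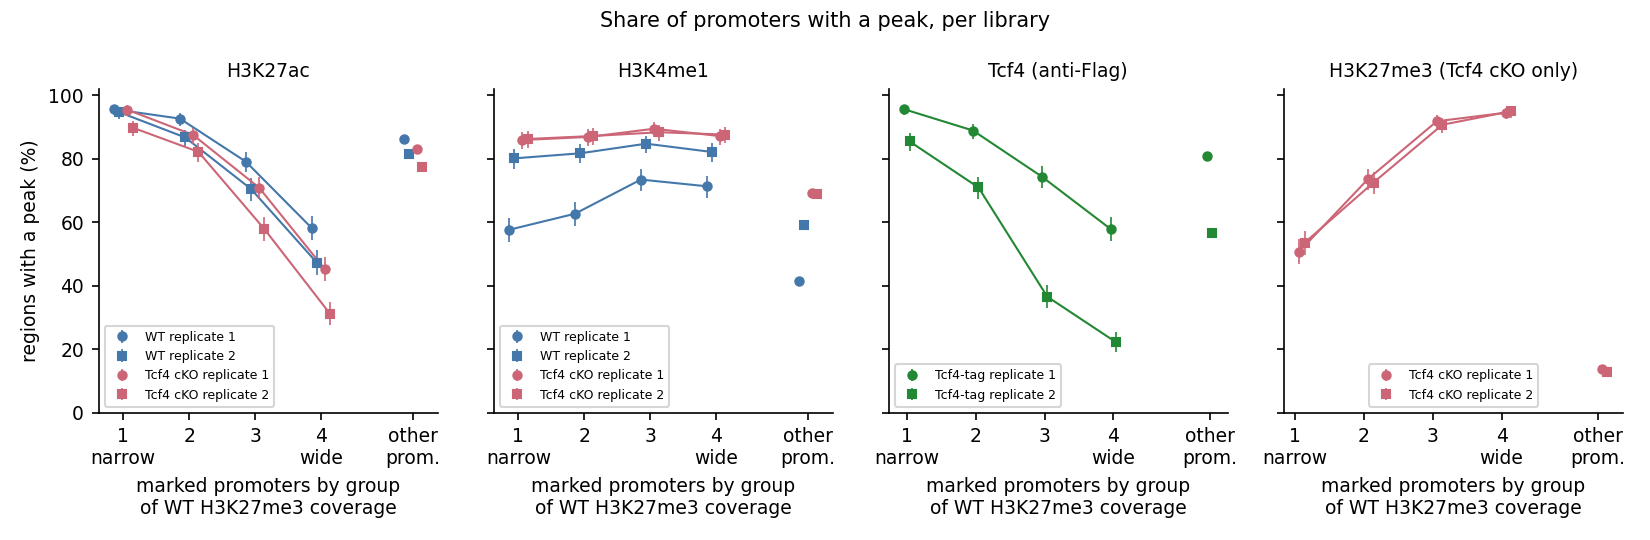
Share of promoters (%) overlapping a peak of each mark, for marked promoters in coverage groups 1 to 4 and for the other promoters, with 1 point per library and 95% Wilson intervals. H3K27ac and Tcf4 shares drop from above 85% in group 1 to below 60% in group 4, H3K4me1 stays higher at the marked than at the other promoters, and H3K27me3 in Tcf4 cKO climbs from near 50% to near 95%.

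H3K4me1 was more frequent at the marked than at the other promoters. It was called at 66.3% and 82.2% of them in WT and at 87.4% in each Tcf4 cKO library, against 41.5% and 59.1% in WT and 69.2% and 68.8% in Tcf4 cKO at the other promoters. The difference averaged 21.2 percentage points and lay between 18.2 and 24.8 (4 of 4 libraries, exact sign-flip test, p = 0.125). Tcf4 shares were closer, with 79.2% and 53.9% of the marked and 80.9% and 56.6% of the other promoters occupied (mean difference −2.19 points, exact sign-flip test, p = 0.5). That sign depended on the overlap asked for, and was 4.37 points when peaks had to cover at least 50% of the region. Of the 570 promoters with −log10 q of at least 5, 64.0% and 24.7% had a Tcf4 peak, both lower than the shares of the other promoters.

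Among the 1350 marked promoters with a Tcf4 peak in both libraries, Tcf4 and WT H3K27me3 fold enrichment were correlated, with a Spearman rho of 0.578 over promoters. Within group 1 rho was 0.623 over 546 promoters, and within group 4 it was 0.00258 over 132. Both values were taken relative to a local background at the same region and both were correlated with WT accessibility, at rho 0.454 for Tcf4 and 0.470 for H3K27me3, so these are descriptions. Msh3, a mismatch repair gene, had H3K27me3 fold enrichments of 5.38 and 6.88 in WT and Tcf4 fold enrichments of 12.4 and 11.1. Ppp2r5a, a phosphatase regulatory subunit, had 6.99 and 5.86 for H3K27me3 and 10.4 and 9.25 for Tcf4, and Ints7, a subunit of Integrator, 5.82 and 5.92 and 10.5 and 10.6. Their H3K27me3 coverage was between 3.62% and 6.61% in WT, all in group 1, and each had H3K27ac in all 4 libraries. The highest Tcf4 values were at Gpsm2 (12.6 and 11.6), at the histone variant gene H2az2 (13.0 and 11.2), at Msh3 and at Prkdc, the catalytic subunit of DNA-dependent protein kinase (11.5 and 11.3). Of the 5 highest H3K27me3 values, 4 were at promoters that ranked among the highest 23 of 1350 for Tcf4, and the fifth, the imprinted gene Impact, ranked 69. The promoter at rank 23 was ENSMUSG00000089855, whose fold enrichment is uncertain because its bases read as ribosomal RNA. Msh3, Ints7 and Ppp2r5a ranked 3, 8 and 20.

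Genes that encode homeobox factors were mostly marked, and mostly in group 4. Of 72 genes with homeobox in their name and an open promoter, 47 (65.3%) were marked, 40 of them in group 4, which held 639 regions in all, whereas 19.9% of all 12049 genes with a symbol and an open promoter were marked. Forkhead box genes were marked in 14 of 26 and T-box genes in 4 of 6. Names with potassium were marked in 29 of 80, spread over the groups with 12 in group 4. By contrast ribosomal protein names were marked in 12 of 153, 11 of them in groups 1 and 2, and proteasome names in 2 of 45. The highest coverage was at Dmrt2, a DM-domain gene (73.3% and 100% in WT, 83.6% and 83.5% in Tcf4 cKO), at the forkhead gene Foxb2 (73.8% and 73.8%, then 76.0% and 73.8%) and at the LIM homeobox gene Isl2 (74.0% and 72.3%, then 50.2% and 47.6%).

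All 5 Hox promoters that were open were marked, and all lay in group 4. Hoxa3 had coverage of 56.7% and 49.3% in WT and 34.6% and 30.2% in Tcf4 cKO, so the genotypes did not overlap. Hoxa7 had 47.0% and 35.4% in WT and 59.5% and 30.5% in Tcf4 cKO, with overlap. The genes named from the lists were led by high WT coverage, so lower coverage in Tcf4 cKO follows in part from that choice. Lack of overlap was frequent, with 22.4% of the 639 regions of group 4 lower in Tcf4 cKO and 19.2% higher. Hox genes pattern the trunk and hindbrain along the body axis. Of the 19 open promoter genes of mesoderm and endoderm regulators 18 were marked, with 20 regions that all lay in group 4 and all kept an H3K27me3 peak in both Tcf4 cKO libraries. They included Alx4, a craniofacial homeobox gene (66.2% and 66.7% in WT, 35.9% and 47.1% in Tcf4 cKO) and Twist1, a regulator of mesenchyme (42.1% and 58.2%, then 48.2% and 43.0%). None of the 20 had Tcf4 in both libraries, against 132 of the 639 regions of group 4 (20.7%). Msx1 alone on this list had H3K27ac in the Tcf4 cKO libraries (5.04 and 4.27) without a WT peak.

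Regulators of the ventral forebrain, the origin of this lineage, were also marked, in 15 of 17 genes with an open promoter. Dlx6, a homeobox gene of GABAergic progenitors, had coverage of 60.6% and 60.5% in WT and 53.3% and 60.8% in Tcf4 cKO. Dlx1 had 55.8% and 53.4%, then 37.8% and 55.6%, and Dlx2 44.5% and 53.6%, then 50.03% and 50.6%, each with overlapping genotypes. Lhx8, a regulator of cholinergic neurons, had 50.9% and 70.3% in WT and 25.9% and 43.1% in Tcf4 cKO without overlap. Nkx2-1 itself, the gene that defines the lineage, had 32.7% and 23.5% in WT and 47.8% and 31.2% in Tcf4 cKO, with overlapping genotypes. Its accessibility difference, Tcf4 cKO minus WT, was −0.47 on the log2 scale.

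H3K27ac was not absent from this list. Maf, a regulator of interneuron fate, had H3K27ac in all 4 libraries (4.39 and 5.03 in WT, 3.62 in each Tcf4 cKO library) beside H3K27me3 coverage of 17.9% and 22.7% in WT. Gsx2, which specifies the lateral ganglionic eminence, and Npy, which encodes a neuropeptide of interneurons, likewise had H3K27ac in all 4. Gad1, which encodes the GABA-synthesising enzyme, had H3K27me3 coverage of 8.98% and 28.0% in WT and 25.8% and 19.0% in Tcf4 cKO, H3K27ac in 1 Tcf4 cKO library, and an accessibility difference of −0.50. Of the 15, 4 had H3K27ac in both WT libraries, 5 in both Tcf4 cKO libraries and 2 had Tcf4 in both libraries. The shares were 70.7%, 62.1% and 52.8% of all marked promoters. In group 4, which held 8 of the 15, they were 40.7%, 26.4% and 20.7%.

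Regulators of the dorsal forebrain were marked in 5 of 8 genes. Pax6, the regulator of cortical radial glia, had coverage of 47.2% and 47.0% in WT and 72.0% and 60.2% in Tcf4 cKO at one region and 36.2% and 36.0%, then 61.0% and 49.1%, at its second. Emx1, a dorsal telencephalic homeobox gene, had 54.3% and 40.7% in WT and 67.5% and 65.6% in Tcf4 cKO. At both genes the Tcf4 cKO libraries were higher than either WT library. Neurog2, a proneural gene of glutamatergic neurons, had 40.6% and 28.4%, then 28.8% and 30.1%, and overlapped. Midbrain, hindbrain and spinal cord regulators were marked in 12 of 15, 11 in group 4, with Pax5 at 62.5% and 52.9% in WT and 60.9% and 51.7% in Tcf4 cKO and Lhx4 at 56.5% and 56.9%, then 56.9% and 56.8%. Of these 12, 5 had H3K27ac in both WT libraries and 2 in both Tcf4 cKO libraries, against 40.7% and 26.4% of group 4. None had Tcf4 in both anti-Flag libraries, against 20.7% of group 4.

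**Figure D3:**
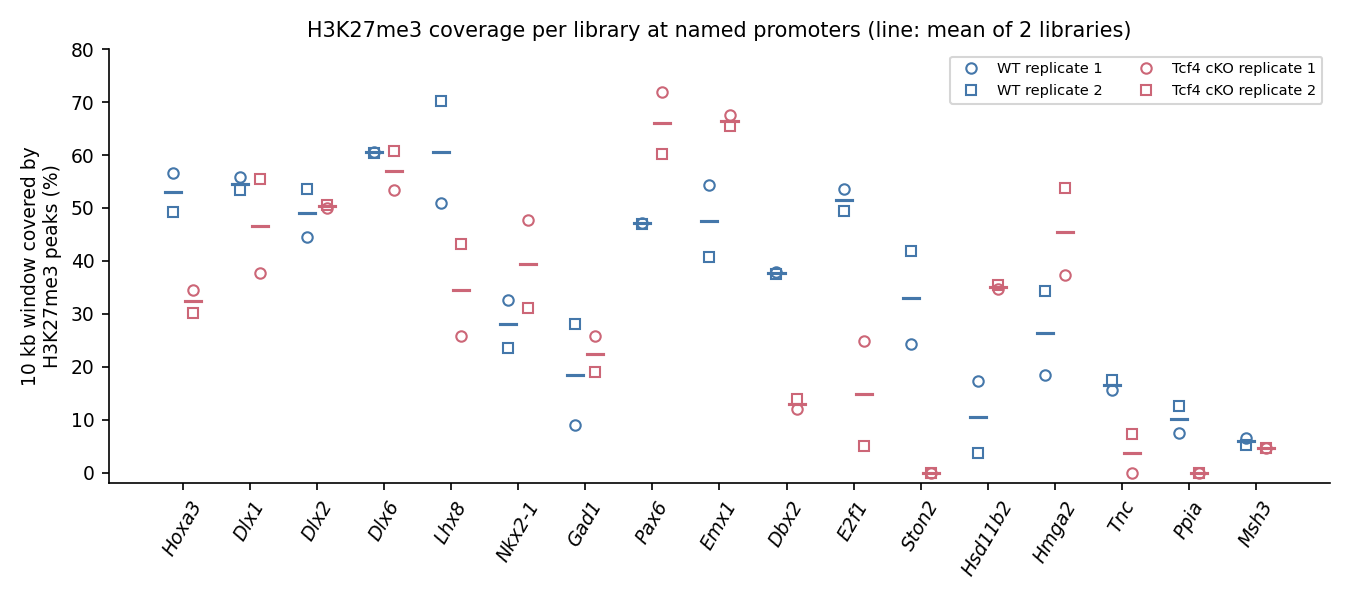
H3K27me3 coverage of the 10 kb around the promoter (%) at named marked promoters, with 1 point per library and the genotype given by colour. Horizontal lines are means of 2 libraries. Pax6 and Emx1 have both Tcf4 cKO points above both WT points, Hoxa3 and Lhx8 have both below, and Dlx1, Dlx2 and Dlx6 overlap.

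Secreted ligands and inhibitors of the Wnt, BMP, Hedgehog and FGF pathways were marked in 24 of 31 genes, with 16 of the 25 regions in group 4. Gdf7, a BMP ligand, had coverage of 50.6% and 49.3% in WT and 58.1% and 50.6% in Tcf4 cKO. Wnt10b had 47.5% and 43.1%, then 59.8% and 56.7%, and Fgf8, a patterning signal of the anterior forebrain, 49.9% and 38.4%, then 59.6% and 48.6%. H3K27ac lay at 14 of the 25 in both WT and at 8 in both Tcf4 cKO libraries, where the shares were 70.7% and 62.1% of all marked promoters and 40.7% and 26.4% of group 4. Bmp2 (4.09 and 4.48) and Wnt2b (4.31 and 3.40) had it in both WT libraries but not in Tcf4 cKO. Axon guidance and adhesion genes were marked in 9 of 24, among them Sema3f and Unc5b, with the same H3K27ac pattern, and the receptor gene Epha8.

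Astrocyte genes were marked in 6 of 23 with an open promoter (26.1%), near the 19.9% of all genes with a symbol and an open promoter. All 6 had H3K27ac in both WT libraries, as did 70.7% of all marked promoters. Id4, an inhibitor of basic helix-loop-helix factors, had coverage of 33.6% and 25.9% in WT and 23.1% and 17.3% in Tcf4 cKO. Gja1, the astrocytic gap junction gene, had 21.5% and 28.2%, then 22.4% and 19.5%, and accessibility 0.66 higher in Tcf4 cKO. Slc1a2, the glial glutamate transporter, had 10.2% and 19.2%, then 9.02% and 6.13%, with Tcf4 in both libraries (5.99 and 6.27). Fgfr3, a receptor of astrocyte progenitors, had 7.18% and 21.5%, then 21.2% and 5.44%, H3K27ac in all 4 libraries, and an accessibility difference of 0.07. Of 13 glial genes, most of them named in the study, 12 had an open promoter and Fgfr3 alone was marked. For Nfix the study described H3K27me3 at putative enhancers, which these promoter counts do not address. Oligodendrocyte genes were marked in 1 of 12, Nkx6-2, and endothelial and mural genes in 7 of 7, all in group 4, such as Cldn5, a tight junction gene (26.6% and 25.1%, then 26.2% and 25.9%). Of these 7, 3 had H3K27ac in both WT and 2 in both Tcf4 cKO libraries, against 40.7% and 26.4% of group 4. Pdgfrb, a pericyte receptor, had accessibility 0.89 higher in Tcf4 cKO without H3K27ac in any library.

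Among Polycomb and Trithorax subunit genes 4 of 25 were marked (16%), near the 19.9% of all genes with an open promoter. Cbx8, a reader of H3K27me3, had coverage of 50.8% and 25.6% in WT and 38.9% and 59.3% in Tcf4 cKO. Cbx7 had 11.1% and 16.4%, then 9.91% and 11.1%. Jarid2, an accessory subunit of Polycomb repressive complex 2, had 3.90% and 10.7%, then 23.4% and 3.46%, and Ezh2 had 3.93% and 10.6%, then 0% and 6.40%, with H3K27ac in all 4 libraries. The 2 marked housekeeping genes of 19, Ppia and Ywhaz, had no H3K27me3 peak left at their promoter in Tcf4 cKO, and H3K27ac in all 4 libraries and Tcf4 in both.

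Between genotypes, H3K27me3 was found in both Tcf4 cKO libraries at 1784 of the marked promoters (69.8%), in 1 library at 411 and in neither at 362 (14.2%, Wilson interval 12.9% to 15.6%). A peak in each WT library and in no Tcf4 cKO library is called the WT-only pattern here, and the reverse the cKO-only pattern. Over all 32120 regions 1.72% had WT-only H3K27me3, and since the rule required the WT peaks nothing is read from this difference. The cKO-only pattern, which no marked promoter can show, occurred at 287 of the other promoters and at 1.34% of all regions. The 362 were mostly narrow, with 212 in group 1, 96 in group 2, 34 in group 3 and 20 in group 4. H3K27ac was present in both WT libraries at 90.9% of the 362 and Tcf4 in both libraries at 86.2%, against 62.8% and 39.4% of the 1784 that kept both peaks. The 1784 were mostly wide, with 560 in group 3 and 592 in group 4. All of group 1 had 92.7% and 85.3%, so this contrast was not separated from coverage.

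Libraries of one genotype shared H3K27me3 promoters somewhat more often than libraries of different genotypes. Of the 3362 promoters with a peak in WT replicate 1, 76.1% had one in WT replicate 2, 67.8% in Tcf4 cKO replicate 1 and 67.7% in replicate 2. Of the 4072 in WT replicate 2, 62.8% had one in WT replicate 1, 61.1% in Tcf4 cKO replicate 1 and 60.8% in replicate 2. Starting from Tcf4 cKO replicate 1, 71.5% were in the other Tcf4 cKO library, 64.5% in WT replicate 1 and 70.4% in WT replicate 2. The same rule applied to the Tcf4 cKO libraries chose 2528 promoters, which had a WT H3K27me3 share of 79.6% on average, close to the 77.8% of the marked promoters in Tcf4 cKO. Coverage over the marked promoters had a Spearman rho of 0.799 between the WT libraries, 0.856 between the Tcf4 cKO libraries and 0.833 between the genotype means. The last value compares means of 2 libraries and the others single libraries, so they cannot be set against each other.

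Coverage was lower in both Tcf4 cKO than in both WT libraries at 767 marked promoters and higher at 479 (18.7%). Of all regions, 6.02% and 6.77% showed these patterns. The rule required a peak in both WT libraries, whereas 77.5% of all regions had a peak in neither. A region without coverage in WT cannot show the lower pattern, so nothing is read from the comparison with all regions. In group 4 the counts were 143 lower and 123 higher. The direction moved with the genotype used to choose promoters, since among the 2528 chosen in Tcf4 cKO 257 were lower and 950 higher. Of all marked promoters without overlap the largest drops in mean coverage, named after their values were seen, included E2f1, a cell-cycle regulator (53.5% and 49.4% in WT, 24.8% and 5.04% in Tcf4 cKO), and Ston2, an endocytic adaptor (24.2% and 41.8%, then 0% and 0%). The largest gains included Hsd11b2, which inactivates glucocorticoids (17.4% and 3.78%, then 34.7% and 35.4%), and Hmga2, a chromatin protein of progenitors (18.4% and 34.3%, then 37.3% and 53.8%), beside Pax6 and Emx1.

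WT-only H3K27ac was called at 93 marked promoters (3.64%, Wilson interval 2.98% to 4.44%), against 1.90% of the other promoters and 3.55% of all regions, and 41 of the 93 were in group 4 (6.42% of that group). The cKO-only pattern held at 16 (0.626%), against 0.599% and 1.35%. Genes of the lists with WT-only H3K27ac included Lhx9, Lmx1a, Tbx18, Bmp2, Wnt2b, Sema3f and Unc5b. At Lhx9, a LIM homeobox gene, H3K27ac fold enrichment was 4.82 and 4.42 in WT, with coverage of 35.6% and 35.2%, then 36.6% and 36.6%. At Lmx1a, a regulator of the roof plate and midbrain, it was 3.96 and 3.98, with coverage of 39.5% and 42.3%, then 47.9% and 39.8%.

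As shares of the marked promoters, H3K27ac averaged 78.1% ± 4.67 (SD, n = 2) in WT and 70.1% ± 6.72 (SD, n = 2) in Tcf4 cKO, and the libraries overlapped (difference −8.06 points, exact permutation test, two-sided, p = 0.667). In group 4 the averages were 52.7% ± 7.75 and 38.2% ± 9.96 (SD, n = 2 each), a difference of −14.6 points without overlap (exact permutation p = 0.333). Relative to the other promoters of the same library the marked promoters differed by −4.76 and −6.74 points in WT and by −8.33 and −12.1 points in Tcf4 cKO (exact permutation p = 0.333). The number of H3K27ac peaks was lowest in Tcf4 cKO replicate 2, and its part in these differences was not tested. Without that library the difference was −3.30 points over all marked promoters and −7.51 in group 4, and without Tcf4 cKO replicate 1 it was −12.8 and −21.6.

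H3K4me1 averaged 74.2% ± 11.3 (SD, n = 2) of the marked promoters in WT and 87.4% in Tcf4 cKO, where the libraries were equal, a difference of 13.1 points without overlap (exact permutation p = 0.333). The other promoters differed by 18.7 points in the same direction, and both Tcf4 cKO libraries held more H3K4me1 peaks than either WT library. The part of that peak number in the difference was not tested, and without WT replicate 1 the difference was 5.16 points. H3K4me1 was cKO-only at 115 marked promoters (4.50%), against 7.52% of the other promoters and 5.42% of all regions. It was WT-only at 6 (0.235%), against 0.335% and 0.95%. ATAC-seq peaks were called at 99.96% of the marked promoters in each WT library and at 99.8% and 99.7% in Tcf4 cKO. They were WT-only at 2 marked promoters and cKO-only at 0. Of the other promoters 0.185% and 0.106% showed these patterns, and of all regions 1.02% and 0.56%.

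Accessibility of the marked promoters was close between genotypes. The median difference of the authors' means, Tcf4 cKO minus WT, was −0.083 on the log2 scale, against −0.116 at the other promoters and −0.095 over all regions, and relative to all regions it was 0.013. These columns are means of the libraries without a spread, so no test was possible. A difference above 0.5 was seen at 62 marked promoters (2.42%) and below −0.5 at 61 (2.39%). The other promoters had 1.89% and 3.38%, close to these shares, and all regions had 8.38% and 12.6%. Centred on all regions the counts were 97 and 39. Of the 62, 37.1% had H3K27ac in both WT libraries and 11.3% Tcf4 in both libraries, and of the 61, 60.7% and 42.6%. Both sets were lower than the 2434 marked promoters within the threshold, which had 71.8% and 54.1%.

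The largest positive differences were at Svep1, an extracellular matrix gene (1.25), Ephb4, a receptor of venous endothelium (1.09), Tnc, the matrix glycoprotein tenascin C (1.07), Dbx2, a homeobox gene of neural progenitors (1.01), and Egfr, the epidermal growth factor receptor (1.001). Dbx2 had H3K27me3 coverage of 37.9% and 37.6% in WT and 11.98% and 13.9% in Tcf4 cKO, H3K27ac in all 4 libraries and Tcf4 fold enrichments of 6.83 and 6.02. Tnc had coverage of 15.7% and 17.4%, then 0% and 7.32%. Ephb4 had 33.1% and 33.0%, then 30% and 34%, so its H3K27me3 overlapped between genotypes while accessibility differed. The largest negative differences were at Elavl4, a neuronal RNA-binding protein gene (−1.60), Gm21451 (−1.47), ENSMUSG00000085445 (−1.41), the cytochrome P450 gene Cyp4x1 (−1.24) and Lrrc3b (−1.22). Elavl4 had coverage of 20.4% and 27.5% in WT and 7.45% and 7.22% in Tcf4 cKO, and ENSMUSG00000085445 lacked H3K27me3 and H3K27ac peaks in both Tcf4 cKO libraries after having both marks in both WT libraries. These 2 genes do not stand for the 61 promoters with a difference below −0.5, whose median change of coverage, Tcf4 cKO minus WT, was 2 percentage points, and the 62 above 0.5 had a median of −0.53.

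**Figure D4:**
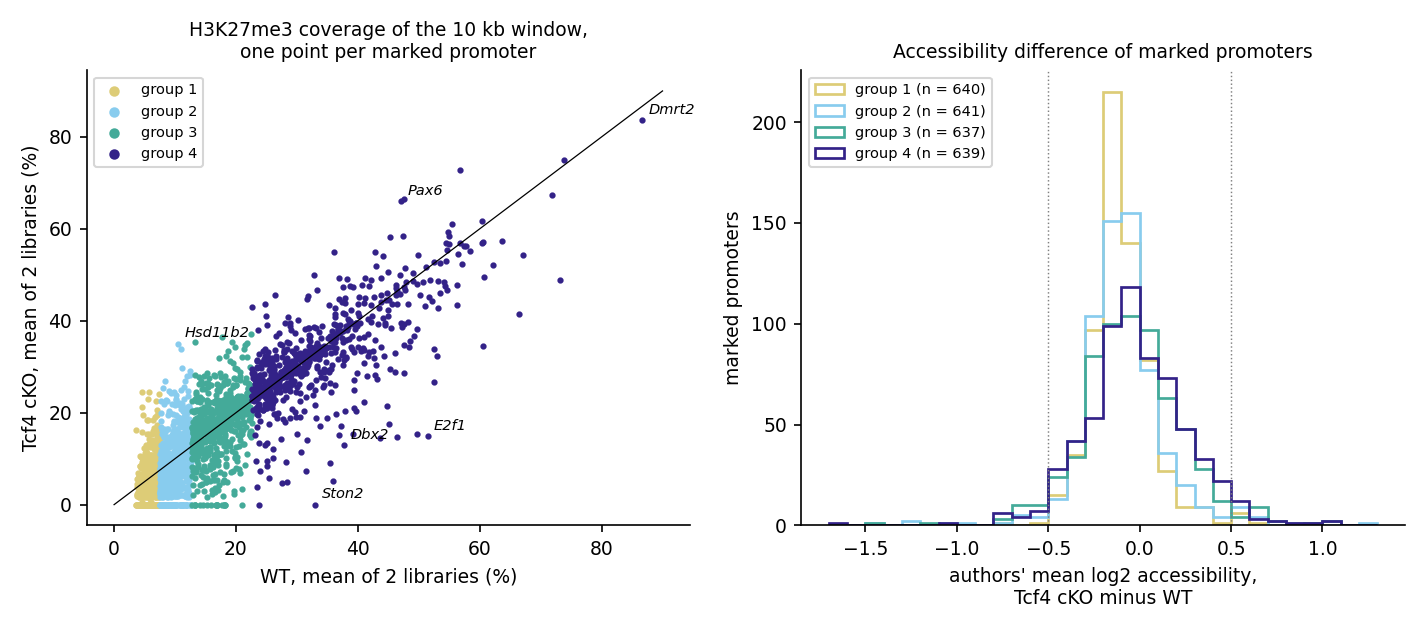
Left, mean H3K27me3 coverage (%) in Tcf4 cKO against WT for each marked promoter, coloured by coverage group; right, histograms of the accessibility difference, Tcf4 cKO minus WT (authors' mean log2), per group. Most points lie along the diagonal, group 1 holds the promoters without coverage in Tcf4 cKO more often than group 4, and the histograms centre slightly below 0.

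WT-only H3K27me3 together with cKO-only H3K27ac was found at 4 marked promoters, Arid2, Pxmp4, Gm11837 and Mexis (0.156%, Wilson interval 0.0609% to 0.402%), against 0.0156% of all regions. The rule required the WT peaks, so nothing is read from that difference. All 4 were in group 3 and none was among the 570 with −log10 q of at least 5. The reverse pattern, which no marked promoter can show, was found at 10 of the other promoters and at 0.0592% of all regions. At Arid2, whose sequence is printed above, H3K27me3 fold enrichment was 3.02 and 3.34 in WT and H3K27ac 2.52 and 2.82 in Tcf4 cKO, coverage was 17.1% and 16.5%, then 0% and 0%, and Tcf4 was present at 4.57 and 4.69. At Pxmp4, a peroxisomal membrane protein gene, H3K27ac was 5.51 and 5.53 in Tcf4 cKO, Tcf4 was 4.99 and 4.45, and coverage was 18.1% and 18.5%, then 27.8% and 0%, the former from a peak outside the region. Mexis, a non-coding RNA, had coverage of 24.5% and 17.5%, then 0% and 0%, with H3K27ac at 4.11 and 4.23. Accessibility differed by −0.23 at Arid2, 0.35 at Pxmp4 and 0.03 at Mexis.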

How the data were processed

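ATAC-seq and Cut&Tag libraries from sorted Nkx2.1-lineage cells were used. The authors trimmed reads with Trim Galore, aligned them to mm10 with Bowtie 2, kept proper pairs and removed duplicates with SAMtools, and called peaks per library with MACS2 (broad peaks for H3K27me3). The authors also merged alignments of highly correlated replicates, but the peak lists used here are per library. The deposited peak lists give for each peak a fold enrichment (a ratio to local background) and −log10 q values. The consensus ATAC-seq table, made by the authors with IDR, DiffBind and ChIPseeker, gives mean log2 normalised reads per genotype. Its columns of fold change, p-value and FDR and a table of footprint scores hold the authors' own comparisons and were not used, and the single-cell RNA libraries were not analysed here. Tool versions are not given here.

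Peaks were overlapped with the consensus regions at 1 bp or more, and H3K27me3 coverage was taken within 5 kb of each region's centre. CG content and motifs were read from the GRCm38 reference in 300 bases around the centre. A promoter was assigned to its gene by the authors' annotation, and 98.0% of its transcripts were found in GENCODE M21. Depth per library is unknown from peak lists, so the precision of a share is given as a 95% Wilson interval that covers counting error only. Genotypes were compared over libraries with a two-sided exact permutation test, and promoter classes within libraries with an exact sign-flip test, in Python 3.11.15 with scipy 1.17.1; the overlaps and tests were checked on simulated data. Replicate numbers were not shown to pair the samples.

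The regions, the gene lists and the tests were chosen with earlier results of these data known. Named genes were those of 13 lists with a marked promoter, led by the highest WT coverage. To these came the 5 largest accessibility differences in each direction, the 5 largest H3K27me3 and Tcf4 fold enrichments, and promoters that changed from H3K27me3 to H3K27ac. Glial genes, most of them named in the study, were also included. Some genes and 1 sequence that the rule selects are not reported here. Regions with wide coverage and with the largest coverage changes were added after their values were seen. Alternatives were peaks covering at least 50% of the region, −log10 q of at least 5, 1 region per gene, leaving out each library, a replicate block, a 2.5 kb window, other accessibility thresholds and centring.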

Additional observations from a re-analysis of the deposited data

How the results depend on the processing

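Of the values recomputed under another setting 78 kept their direction and, for counts and levels, stayed within 1.5 times or the spread, 35 moved further and 3 reversed, and the cause was not tested. Requiring a peak over at least 50% of the region left 1405 marked promoters and −log10 q of at least 5 left 570, and 1 WT library alone gave 3362 to 4072. Over all 2557 marked promoters, where the WT share is then below 100%, the H3K27me3 share in Tcf4 cKO minus WT was −8.99 points from peaks over at least 50% of the region and −1.90 from peaks with −log10 q of at least 5 instead of −22.2, −22.4 with 1 region per gene, and −22.3 to −22.1 when a library was left out. The Tcf4 share relative to the other promoters reversed to 4.37 and 0.0947 points. By such peaks, WT-only H3K27me3 was found at 132 and 85 promoters, out of the 1405 and 570, and 564 to 1172 without a library, and promoters with it only in Tcf4 cKO 56 at −log10 q of at least 5 and 464 to 751 without a library. H3K27ac counts ran from 26 to 82 (Tcf4 cKO only) and 131 to 283 (WT only) without a library.

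The median accessibility difference was −0.104 among regions at or above the median level, −0.0849 with 1 region per gene and 0.0125, reversed, after centring. Past a difference of 1 there were 5 promoters higher and 8 lower, and after centring, chosen after seeing the data, 97 and 39 past 0.5. The CG ratio was 0.713 over whole regions. Median coverage was 24.2% in WT and 25.3% in Tcf4 cKO within 2.5 kb, 0 in both from peaks with −log10 q of at least 5, and 12.7% to 13.1% in WT and 12.7% to 14.6% in Tcf4 cKO without a library.

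With a replicate block the differences between genotypes were the same by construction, −8.06 points for H3K27ac, 13.1 for H3K4me1, −0.196 for ATAC-seq and −22.2 for H3K27me3, with an exact sign-flip p = 0.5, the smallest 2 pairs allow, so it changed no call. The widest-group H3K27ac difference, whose alternatives were added after seeing the data, was −8.06 points at 50% coverage, −9.39 at −log10 q of at least 5, −13.8 and −14.7 with groups from 1 WT library, and −21.6 to −7.51 without a library. With 2 libraries per genotype and no read totals, differences in peak calls cannot be told apart from differences in depth.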

Other observations

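H3K27ac peaks of both WT libraries without one in Tcf4 cKO, together with H3K27me3 peaks of both Tcf4 cKO libraries without one in WT, were found at 10 promoters that the marked set does not include, among them Tle2, Adcy1, Ace, Rnf213, Pik3ap1, Fam189a1, Ky, Als2cl and ENSMUSG00000087571. Tle2, a transcriptional corepressor gene of the Groucho family, had H3K27ac fold enrichments of 3.55 and 3.50 in WT, H3K27me3 fold enrichments of 2.13 and 2.10 in Tcf4 cKO, Tcf4 fold enrichments of 4.22 and 4.04 and an accessibility difference of −0.66. They were named by a rule added after their values were seen.

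Sox9, a regulator of astrocytes, had no H3K27me3 within the 10 kb window in WT and coverage of 40.8% and 17.3% in Tcf4 cKO, with peaks at the promoter at fold enrichments of 2.24 and 2.34, Tcf4 at 3.94 and 4.57, and an accessibility difference of −0.51. Olig2, a regulator of oligodendrocytes, had coverage of 0% and 0% in WT and 37.1% and 0% in Tcf4 cKO, so a single library carried it. Over all 13909 promoters 2.06% had cKO-only H3K27me3, as did 1.34% of all regions, so nothing is read from these 2 genes.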
